A study of Mus musculus with 4 samples.

Results

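The interferon regulatory factors are a family of transcription factors that share a DNA-binding domain with a conserved set of tryptophans. The 8 members described here, Irf1, Irf2, Irf3, Irf4, Irf5, Irf7, Irf8 and Irf9, were taken by symbol from a table of reads per promoter that covered 23631 genes. Each gene was represented by its RefSeq transcript with the highest mean count, and all 8 were among the 22835 genes whose mean count reached 10. The reads are ChIP-seq reads for acetylated histone H3, a mark of active promoters, from left ventricles of male C57BL6 mice of 10 to 12 weeks. The mice had transverse aortic constriction (TAC), which puts a pressure load on the ventricle, or a sham operation. Over 4 weeks they were injected 2 times a day with trichostatin A (TSA), which blocks histone deacetylases, or with its solvent DMSO as vehicle (Veh). The daily TSA dose was 0.6 mg per kg. Surgery and injection make 4 groups, named Sham Veh, TAC Veh, Sham TSA and TAC TSA, each with 1 library. How many animals went into a library is not given in the sources used here, and there is no replicate behind any value.

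Interferon regulatory factors bind repeats of GAAA, the core of the interferon-stimulated response element (ISRE). Irf3 and Irf7 are switched on by kinases such as Tbk1 once sensors of foreign nucleic acid are engaged, and they drive the genes of type I interferons. Interferons signal through Jak kinases to Stat factors, of which Stat2 binds Irf9 in the complex ISGF3 that switches on interferon-stimulated genes. Irf1 activates many of these genes and Irf2 competes with it, Irf5 acts in Toll-like receptor signalling, and Irf4 and Irf8 work mainly in leukocytes, often beside the factor encoded by Spi1. In the heart, members of the family have been studied in the growth response of cardiomyocytes to pressure load and in inflammation.

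The promoters of Irf1, Irf2, Irf8 and Irf9 are shown because Irf9 and Irf2 had the clearest differences between libraries and Irf1, Irf2 and Irf8 held matches to interferon-related motifs. Each sequence runs 5′ to 3′ on the gene's strand, from 250 bases before to 50 bases after a transcription start listed by RefSeq on GRCm38.p6. Capitals mark matches on either strand to an ISRE core, here GAAA, any 2 bases and GAAA, or to TTCNNNGAA, the site (GAS) that Stat dimers recognise. All 4 windows are on the plus strand, that of Irf1 at chr11:53769764-53770063, that of Irf2 at chr8:46739495-46739794, that of Irf8 at chr8:120736108-120736407 and that of Irf9 at chr14:55603735-55604034. The reads were counted on mm9, so these positions are not those of the counted windows.
Irf1: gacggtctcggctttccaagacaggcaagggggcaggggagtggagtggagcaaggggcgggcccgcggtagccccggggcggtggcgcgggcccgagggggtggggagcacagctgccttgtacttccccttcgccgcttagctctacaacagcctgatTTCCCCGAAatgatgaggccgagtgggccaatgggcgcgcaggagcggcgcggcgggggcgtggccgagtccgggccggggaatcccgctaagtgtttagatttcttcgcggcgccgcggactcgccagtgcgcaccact
Irf2: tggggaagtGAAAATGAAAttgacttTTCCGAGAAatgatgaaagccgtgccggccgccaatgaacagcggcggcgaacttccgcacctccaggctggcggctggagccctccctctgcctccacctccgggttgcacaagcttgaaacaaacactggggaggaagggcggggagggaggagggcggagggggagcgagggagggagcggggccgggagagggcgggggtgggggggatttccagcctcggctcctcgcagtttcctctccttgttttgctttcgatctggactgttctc
Irf8: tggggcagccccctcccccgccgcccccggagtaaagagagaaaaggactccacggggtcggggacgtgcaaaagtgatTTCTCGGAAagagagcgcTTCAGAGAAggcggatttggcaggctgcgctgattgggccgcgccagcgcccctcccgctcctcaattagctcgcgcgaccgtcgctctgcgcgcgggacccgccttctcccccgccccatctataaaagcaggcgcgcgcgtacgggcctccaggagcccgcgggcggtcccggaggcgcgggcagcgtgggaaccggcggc
Irf9: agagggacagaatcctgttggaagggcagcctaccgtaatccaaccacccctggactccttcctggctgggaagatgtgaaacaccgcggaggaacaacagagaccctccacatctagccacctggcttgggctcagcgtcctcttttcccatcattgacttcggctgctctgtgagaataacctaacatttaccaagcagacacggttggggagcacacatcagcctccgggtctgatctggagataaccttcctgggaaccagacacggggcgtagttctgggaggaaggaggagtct

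All 8 members matched the RefSeq promoter table, which lists 11 starts for them. The GAS pattern began at −90 from the Irf1 start, at −224 of Irf2 and at −171 and −153 of Irf8. The ISRE core began at −241 of Irf2. Neither pattern was found in the listed windows of Irf3, Irf4, Irf5, Irf7 and Irf9, which says only that these letters are not there. Of 32851 promoters of this length, 3.44% held the ISRE core and 8.30% the GAS pattern. The TATA box letters TATAAA, searched on both strands and found in 13.6% of these promoters, began at −26 of Irf4, −29 of Irf7 and −31 of Irf8. The windows at the first listed start held 38 CpG dinucleotides in Irf8, 35 in Irf5 and 32 in Irf1, against a median of 7 over all promoters. Irf2 (19), Irf3 (18), Irf4 (11) and Irf9 (9) lay between these and the median, and Irf7 (7) was at the median. A second listed start held 43 in Irf1, 8 in Irf8 and 1 in Irf9, the last below the median.

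The TAC TSA library was the shallowest, with 6842296 promoter counts against 8873302 to 9905553 in the others. It also had the highest background as read from olfactory and vomeronasal receptor promoters, taken as silent in heart. These held 0.677% of its counts, against 0.420% to 0.505% elsewhere. Every result with TAC TSA carries this difference, and its part in those results was not tested. Whether the receptor reads are background or acetylation at these promoters was not tested either. Both sham libraries, and neither TAC library, refer to an earlier deposit in their labels, so surgery and deposit cannot be told apart. The 10 cardiomyocyte markers had mean promoter counts from 229 to 501 with none at 0. No marker measured for any other cell type was at 0 either, and endothelial markers reached 699. These counts therefore do not check the tissue label. Libraries were scaled with TMM, a trimmed mean of log ratios, and scaled counts are on the scale of a mean library. Intervals are 95%, cover counting error only and take PCR reads as independent.

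Every member promoter was acetylated above background in every library. Irf2 had the highest mean scaled count, 939 over the 4 libraries, and was above Irf3 in 3 of them but not in TAC TSA (816 against 822). Next came Irf3 (796), Irf1 (788), Irf9 (516), Irf7 (428), Irf5 (360), Irf8 (341) and Irf4 (208). By mean count Irf2 stood at percentile 99.4 of the genes kept and Irf4 at percentile 47.6. Irf4, the lowest, still had 9.25 times (TAC TSA) to 13.9 times (Sham Veh) the median count of a receptor promoter. Neighbours in this order differed beyond counting error in summed count, by ratios from 1.19 (Irf7 over Irf5) to 1.66 (Irf8 over Irf4), except for 2 pairs. These were Irf3 over Irf1 (1.00, 0.955 to 1.05) and Irf5 over Irf8 (1.06, 0.980 to 1.14). The order assumes windows of equal length, which the sources used here do not give. Irf8, with the most CpG at the first listed start, was next to last in this order. Irf1, whose second listed start held the most CpG of all listed windows (43), was among the highest. Which listed start a count belongs to is not known here.

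**Figure D1:**
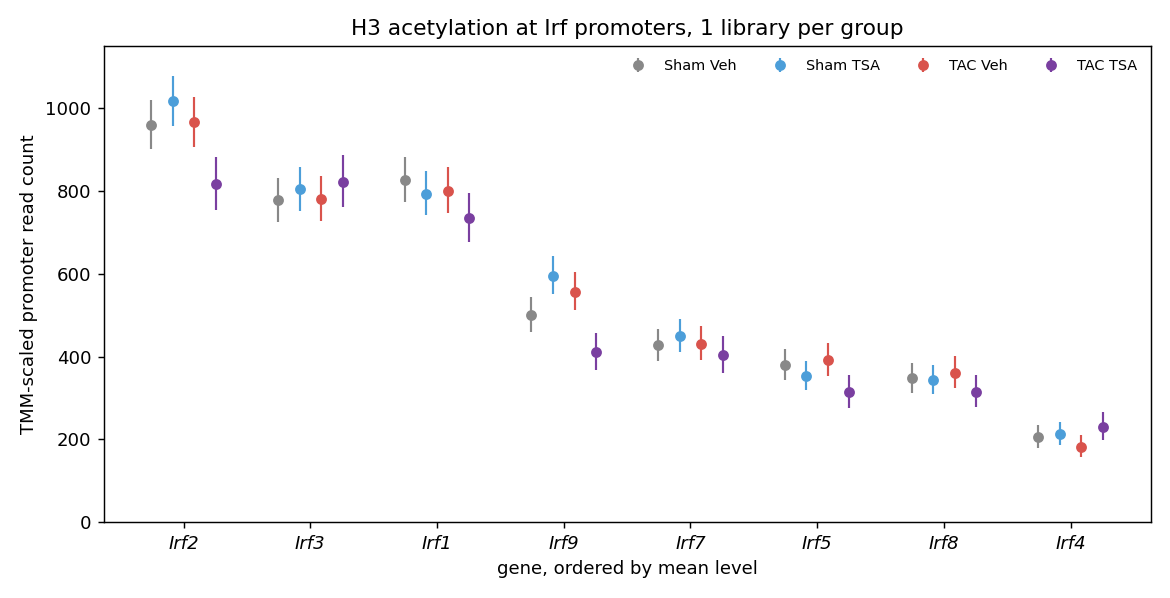
TMM-scaled promoter read counts (vertical axis) of the 8 members in the 4 libraries, 1 point per library with its exact 95% Poisson interval. Irf9 ranges from 411 in TAC TSA to 595 in Sham TSA, and Irf4 is the lowest member in each library.

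Irf9, the DNA-binding subunit of ISGF3, varied most between libraries, over a 1.45-fold range. Its scaled count was 501 (vehicle) and 595 (TSA) after sham surgery and 557 and 411 after TAC. TAC TSA was the lowest, and its Poisson interval (368 to 458) lay below that of each other library. Irf9 had 2 other RefSeq IDs, which shared a set of counts close to the one used (539, 634, 550 and 325, in the same order, against 541, 657, 564 and 330). In whole ventricle, fewer cells of a type and less acetylation per cell cannot be told apart.

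Irf2, which competes with Irf1 for the same sites, was at 958 (vehicle) and 1016 (TSA) after sham surgery and 965 and 816 after TAC. As for Irf9, TAC TSA was lowest with an interval below the others, which overlapped each other. Irf1 was at 826, 793, 800 and 734 in the same order, also lowest in TAC TSA, with all intervals overlapping. Irf3, which is expressed in most cell types, was at 778, 803, 780 and 822, the narrowest range of the family, with all intervals overlapping. Irf7, which amplifies type I interferon, was at 427, 449, 431 and 404, with all intervals overlapping too.

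Irf5, a factor of Toll-like receptor signalling, was at 381 (vehicle) and 352 (TSA) after sham surgery and 392 and 314 after TAC, with TAC Veh highest and TAC TSA lowest and intervals that just overlapped. Irf8, the myeloid partner of the Spi1 protein, was at 347, 342, 361 and 315 in the same order, again with TAC Veh highest and TAC TSA lowest and all intervals overlapping. Irf4, best known from lymphocytes, ran the other way, at 206, 212, 182 and 230. It was lowest in TAC Veh and highest in TAC TSA, on only 184 to 234 reads per library, and all of its intervals overlapped.

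The effect of pressure load under vehicle is read from TAC Veh over Sham Veh, and with TMM scaling no member differed there beyond counting error. Log2 ratios of scaled counts ran from −0.18 (−0.47 to 0.10; −0.43 with receptor-promoter scaling) for Irf4 to 0.15 (−0.02 to 0.33; −0.09 with receptor-promoter scaling) for Irf9. The family median was 0.01, against 0.00 over all genes. It was −0.23 with receptor-promoter scaling, which shifted the median gene by −0.24. With TMM scaling all 8 counting intervals excluded a 1.5-fold difference in either direction, but they do not cover differences between animals. Apart is used below for a promoter with a difference of 1.5-fold or more and an interval that excludes 0. No member was apart, where 1.93% of all genes were apart and higher and 0.582% lower. No member's interval excluded 0, where 5.82% of genes had one above 0 and 7.2% below.

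Without pressure load, TSA is compared with vehicle in Sham TSA over Sham Veh. Irf9 was 1.19-fold higher in the TSA library, a log2 ratio of 0.25 (0.08 to 0.42). It was 1 of 8 with an interval above 0, against 5.2% of all genes, and 0 of 8 had one below, against 3.81%. The others ran from −0.11 (−0.31 to 0.09) for Irf5 to 0.08 (−0.04 to 0.21) for Irf2. None was apart, where 0.582% of genes were higher and 0.582% lower. The family median was 0.04, against 0.01 over all genes.

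Under pressure load, TAC TSA over TAC Veh gave ratios below 0 for 6 of 8 members. Irf9 was 1.35-fold lower in TAC TSA, at −0.44 (−0.64 to −0.24). Irf5 was at −0.32 (−0.55 to −0.09) and Irf2 at −0.24 (−0.39 to −0.10). Irf4 was 1.27-fold higher, at 0.34 (0.04 to 0.65; −0.04 with receptor-promoter scaling), so its direction depended on the scaling. Intervals below 0 were found for 3 of 8 members, against 10.4% of all genes, and above 0 for 1, against 8.13%. Intervals are narrower at higher counts, and 7 of 8 members are above the median gene in count.

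The other members were within counting error of no difference in this comparison. Irf8 was at −0.20 (−0.43 to 0.04), Irf1 at −0.12 (−0.28 to 0.03), Irf7 at −0.10 (−0.31 to 0.11) and Irf3 at 0.08 (−0.08 to 0.23; −0.31 with receptor-promoter scaling). None of the 8 was apart, where 4.06% of genes were higher and 0.342% lower. The family median was −0.16, against 0.00 over all genes. Ratios with TAC TSA fall with the mean count of a promoter, and with this trend removed by loess the family median was −0.09.

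In the treated hearts, TAC TSA over Sham TSA compares pressure load with sham, and it shares the TAC TSA library with the comparison before. Irf9 was 1.45-fold lower in TAC TSA, at −0.53 (−0.73 to −0.34), or −0.41 with loess. Irf2 was at −0.32 (−0.46 to −0.18), or −0.20 with loess. These were the 2 of 8 with an interval below 0, against 13.8% of genes, and 0 of 8 had one above, against 10.3%. The others ran from −0.17 (−0.40 to 0.07) for Irf5 to 0.12 (−0.17 to 0.41; −0.48 with receptor-promoter scaling) for Irf4. None was apart, where 7.2% of genes were higher and 0.206% lower. The family median was −0.14, or −0.03 with loess, against −0.01 over all genes.

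**Figure D2:**
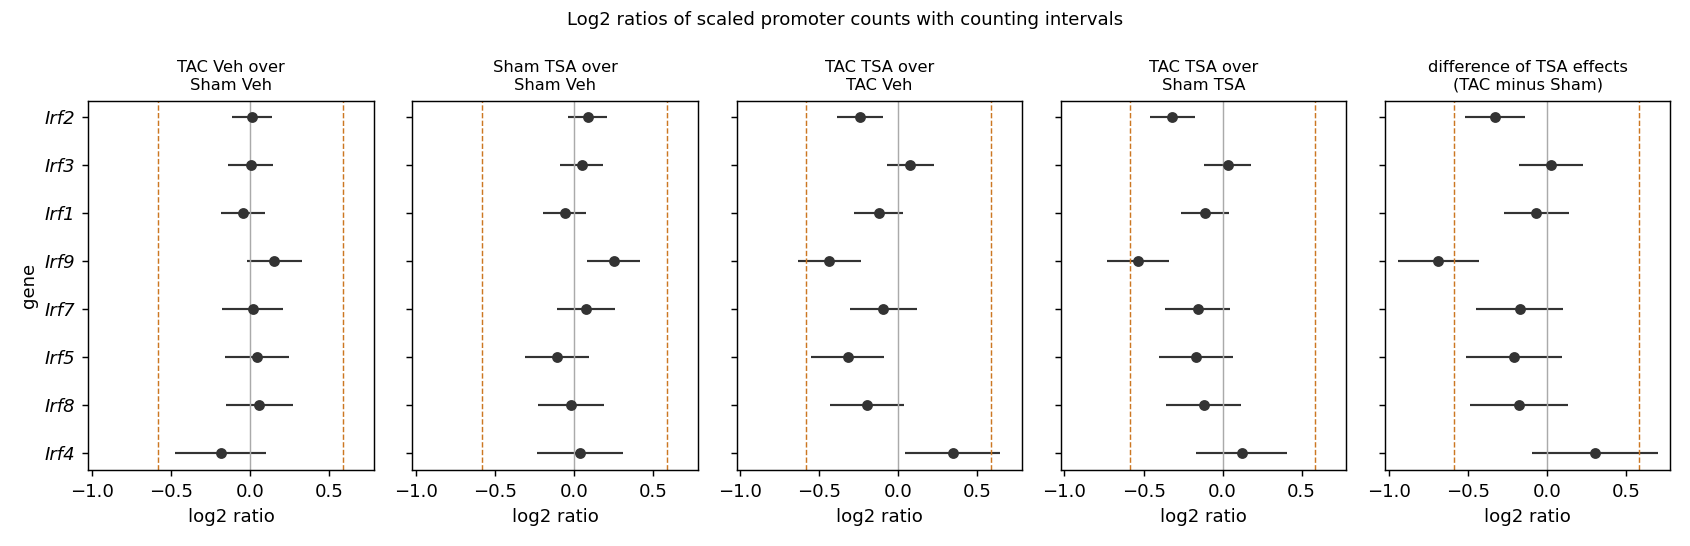
Log2 ratios of TMM-scaled promoter counts (horizontal axis) of each member in the 4 comparisons and in the difference of the TSA ratios, with 95% counting intervals as bars and dashed lines at 1.5-fold. The Irf9 point in the last panel, at −0.69, is the only one past a dashed line.

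The 2 by 2 design gives a further value from all 4 libraries, the log2 ratio of TSA over vehicle under TAC minus that under sham. For Irf9 this difference was −0.69 (−0.94 to −0.43), since its TSA ratio was 0.25 under sham and −0.44 under TAC. Irf9 was 1 of 8 members past 1.5-fold on the lower side, against 1.27% of all genes, and 0 of 8 were on the higher side, against 4.44%. Irf2 was at −0.33 (−0.52 to −0.14). Irf9 and Irf2 were the 2 of 8 with an interval below 0, against 9.14% of genes, and 0 of 8 had one above, against 7.08%.

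The remaining differences lay within counting error. They were −0.21 (−0.51 to 0.09) for Irf5, −0.18 (−0.49 to 0.13) for Irf8, −0.17 (−0.45 to 0.11) for Irf7 and −0.06 (−0.27 to 0.14; 0.01 with loess) for Irf1. Irf3 was at 0.03 (−0.17 to 0.23; −0.32 with receptor-promoter scaling) and Irf4 at 0.31 (−0.09 to 0.70; −0.05 with receptor-promoter scaling). The family median was −0.17, or −0.07 with loess, against −0.01 over all genes.

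These values take most promoters as unchanged. Scaling on receptor promoters shifts the median over genes by −0.03 in Sham TSA over Sham Veh, −0.24 in TAC Veh over Sham Veh, −0.35 in the difference of TSA ratios, −0.38 in TAC TSA over TAC Veh and −0.60 in TAC TSA over Sham TSA. With this scaling the TSA ratio of Irf9 was 0.22 under sham and −0.82 under TAC. Shifts of −0.03 and −0.38, the same for every gene, could not change either sign, so the signs are no check. With loess the difference of its TSA ratios was −0.59, still past 1.5-fold.

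**Figure D3:**
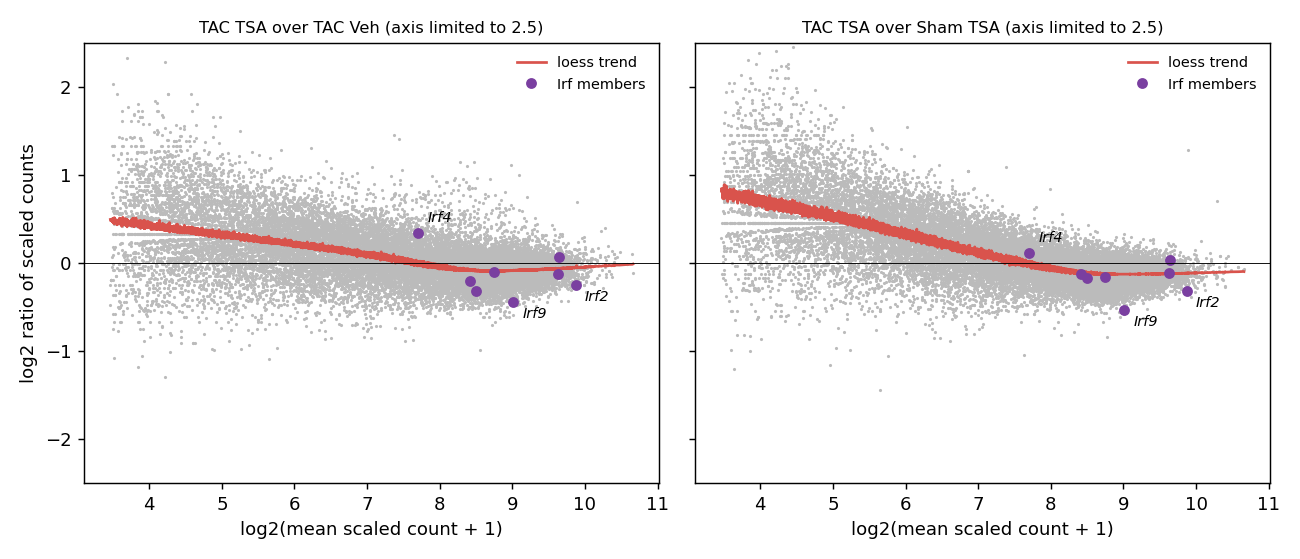
Log2 ratio of scaled counts (vertical axis) against the log2 mean scaled count of all 4 libraries for all genes kept (grey) and the members (purple), with the loess trend in red, which looks jagged because it was fitted on the mean of the 2 libraries compared. Weak promoters have higher ratios in TAC TSA, and Irf9 and Irf2 lie below the trend in both panels.

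The additive model of surgery and drug is the one test over libraries that the design allows, and its 1 residual degree of freedom is the interaction. No member was called for surgery (edgeR quasi-likelihood test, adjusted p from 0.583 to 0.960) or for drug (adjusted p = 1.00 for each), where 0.035% and 0.215% of all genes were called. No member had an unadjusted p under 0.05, as 9.32% of genes did for surgery and 4.27% for drug. DESeq2 called 0 members and 0% of genes for either effect, and at an unadjusted p under 0.05 it had 0 members, 0.206% of genes for surgery and 0.267% for drug. Irf9, whose TSA ratios had opposite signs, had an additive drug effect of −0.07 on the log2 scale. The same effect was −0.21 for Irf5 and 0.18 for Irf4, and the surgery effect was −0.18 for Irf9 and −0.15 for Irf2.

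Promoters beside the members can hold the same reads, since windows and strand are not given. The lncRNA Gm16675 beside Irf2 had 1020, 1106, 963 and 636 reads in the order used above, close to the 1035, 1122, 978 and 655 of Irf2. Bcl2l12 beside Irf3 had 837, 896, 779 and 658 reads, close to the 840, 887, 790 and 660 of Irf3. The values of Irf2 and Irf3 thus cannot be told apart from those of these neighbours. Rnf31, beside Irf9, had 862, 837, 719 and 603 reads, with a ratio of 0.08 in TAC TSA over TAC Veh and −0.07 in Sham TSA over Sham Veh, against −0.44 and 0.25 for Irf9.

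Stat2, which binds Irf9 in ISGF3, was like Irf9 higher in Sham TSA than in Sham Veh and lower in TAC TSA than in Sham TSA. It had 371 (vehicle) and 463 (TSA) reads after sham surgery and 349 and 271 after TAC. Its ratio was 0.29 (0.09 to 0.49) in Sham TSA over Sham Veh, −0.03 (−0.26 to 0.20) in TAC TSA over TAC Veh and −0.31 (−0.53 to −0.09) in TAC TSA over Sham TSA. For Stat2 the difference of TSA ratios was −0.32 (−0.62 to −0.02), not past 1.5-fold, and for the kinase gene Jak1 it was −0.04 (−0.32 to 0.24).

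Across the 12 JAK-STAT genes and their inhibitors, 7 had an interval below 0 in TAC TSA over Sham TSA, against 13.8% of all genes, and 0 above, with a median of −0.23 (−0.11 with loess). In TAC TSA over TAC Veh 3 of 12 were below 0 (genes 10.4%), in Sham TSA over Sham Veh 3 were above (genes 5.2%), and in TAC Veh over Sham Veh none was on either side. Of 6 interferon receptor genes, 2 were below 0 and 0 above in TAC TSA over Sham TSA, where 13.8% of genes were below and 10.3% above. Their median was −0.13, or −0.01 with loess. Ifnar1, a chain of the type I receptor, was at −0.12 (−0.33 to 0.09; 0.004 with loess). Ifngr1, a chain of the interferon gamma receptor, was at −0.13 (−0.31 to 0.05; −0.002 with loess). In TAC Veh over Sham Veh 2 of 6 were below 0 and 1 above, where 7.2% and 5.82% of genes were. The one above was Ifngr1 at 0.18 (0.01 to 0.34; −0.07 with receptor-promoter scaling). No gene of these groups was apart in the pairwise comparisons or in the difference of TSA ratios. All of these JAK-STAT and receptor genes had more reads than the median gene in each library. Their intervals are narrower for that reason, so the shares over all genes are not a like baseline.

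Among 17 sensors, adaptors and kinases upstream of the family, 7 had an interval below 0 in TAC TSA over Sham TSA and, also with 0 above, 7 had one in TAC TSA over TAC Veh, against 13.8% and 10.4% of all genes. The medians were −0.21 and −0.20, or −0.10 and −0.17 with loess. The kinase gene Tbk1 was at −0.24 (−0.43 to −0.05; −0.11 with loess) and −0.20 (−0.39 to 0.00; −0.11 with loess). Most of these 17 genes had more reads than the median gene, and intervals are narrower at higher counts. In TAC Veh over Sham Veh 3 of 17 were above 0 and 0 below, where 5.82% and 7.2% of genes were. The median there was 0.05, or −0.19 with receptor-promoter scaling. In the difference of TSA ratios 5 of 17 were below 0, against 9.14% of genes, and 1 was apart and lower, against 1.27%, the adaptor of cytosolic DNA sensing Sting1 (−0.61, −0.89 to −0.33; −0.51 and not apart with loess).

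Of 12 partners and coregulators none was apart, and 2 had an interval below 0 in TAC TSA over Sham TSA (median −0.06), a share near the 13.8% of all genes. Spi1, the myeloid partner of Irf4 and Irf8, had 259 (vehicle) and 271 (TSA) reads after sham surgery and 307 and 188 after TAC, with TAC Veh highest and TAC TSA lowest. Its ratio was 0.34 (0.09 to 0.58; 0.09 with receptor-promoter scaling) in TAC Veh over Sham Veh and −0.37 (−0.64 to −0.11) in TAC TSA over TAC Veh. The corepressor gene Irf2bp2, named for its binding to Irf2, was at −0.04 (−0.16 to 0.09) in the latter.

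Among 26 target genes of the family, 16 had an interval below 0 in TAC TSA over Sham TSA, against 13.8% of all genes, and 0 above, with a median of −0.27 (−0.19 with loess). Several targets, such as Tap1 and Psmb8, had more reads than the median gene. Intervals are narrower at higher counts, so the share over all genes is not a like baseline for this list. Apart were 2, both lower, against 0.206% of genes, namely Cybb, a subunit of the phagocyte oxidase (on 49 and 16 reads, at −1.16 (−2.07 to −0.32)), and the interferon-induced Ifit3 at −0.62 (−1.01 to −0.23). The 16 reads of Cybb in TAC TSA were below the median receptor promoter of that library (20), at background level. Isg15, a ubiquitin-like protein, was at −0.33 (−0.56 to −0.11), Ifit1 at −0.41 (−0.62 to −0.20), the peptide transporter Tap1 at −0.31 (−0.48 to −0.15) and the immunoproteasome subunit Psmb8 at −0.26 (−0.47 to −0.06). The chemokine Cxcl10 was at −0.17 (−0.50 to 0.17) and the class II transactivator Ciita at 0.01 (−0.34 to 0.35; −0.59 with receptor-promoter scaling). Tap1 and its neighbour Psmb9 had nearly the same counts (902 and 905 in Sham Veh) and are not independent.

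In TAC TSA over TAC Veh 8 of 26 targets were below 0 and 0 above (median −0.15; all genes 10.4% and 8.13%), with Cxcl10 at −0.51 (−0.84 to −0.19), Ifit1 at −0.33 (−0.54 to −0.11) and Tap1 at −0.29 (−0.46 to −0.13). In TAC Veh over Sham Veh 3 were below and 1 above (median −0.05; all genes 7.2% and 5.82%), the one above being Cxcl10 at 0.34 (0.05 to 0.62; 0.09 with receptor-promoter scaling). In Sham TSA over Sham Veh 0 were below and 4 above (median 0.07; all genes 3.81% and 5.2%). The difference of TSA ratios was below 0 for 12 of 26 (median −0.21, or −0.17 with loess), against 9.14% of all genes. It was past 1.5-fold and lower, against 1.27% of genes, for Cybb at −1.20 (−2.30 to −0.10), Ifit3 at −0.73 (−1.24 to −0.22) and Oasl2, of the oligoadenylate synthetase family (−0.59, −0.88 to −0.31; −0.49 and not apart with loess). The additive fit (edgeR) called no gene of the receptor, JAK-STAT, sensor, partner or target lists for either effect.

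**Figure D4:**
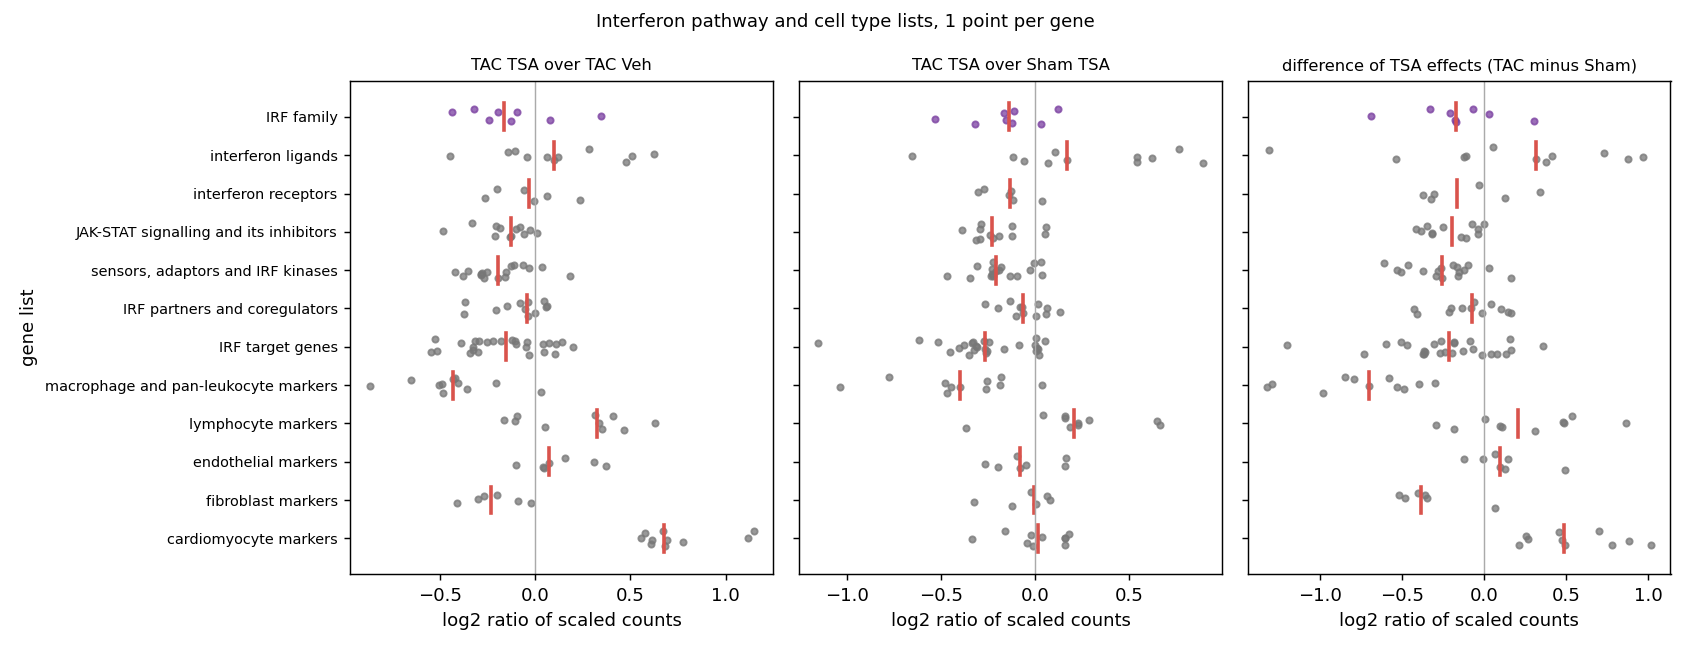
Log2 ratios of scaled counts (horizontal axis) of the genes of each list, 1 point per gene with the list median as a red bar, for TAC TSA over TAC Veh, TAC TSA over Sham TSA and the difference of TSA ratios. The family has medians of −0.16, −0.14 and −0.17, and the macrophage and pan-leukocyte markers −0.43, −0.40 and −0.70.

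Markers of macrophages and leukocytes also differed between libraries. Of 12 such markers 11 were measured, none at 0, and their summed scaled count was 1450 (vehicle) and 1783 (TSA) after sham surgery and 1816 and 1353 after TAC. In the difference of TSA ratios 8 of 11 had an interval below 0, against 9.14% of genes, and 6 were apart and lower, against 1.27%, among them the complement genes C1qb at −1.32 (−1.75 to −0.89) and C1qa at −0.98 (−1.42 to −0.54) and the leukocyte phosphatase gene Ptprc at −1.29 (−1.94 to −0.65). The sum was lowest in TAC TSA, as for 6 of 8 members, and highest in TAC Veh, as for Irf5, Irf8 and Spi1. The rank of TAC Veh depended on the scaling. With receptor-promoter scaling TAC Veh over Sham Veh was −0.20 for Irf5, −0.19 for Irf8 and 0.09 for Spi1. The marker median was then 0.07 in TAC Veh over Sham Veh and 0.28 in Sham TSA over Sham Veh. The marker sum was higher in Sham TSA than in Sham Veh, as for 5 of 8 members but not Irf1, Irf5 and Irf8. Of the members only Irf9 had an interval above 0 there. The 10 lymphocyte markers, none at 0, summed to 1203, 1188, 1154 and 1259 in the same order. Their median log2 ratio was 0.08 in TAC Veh over Sham Veh, where Cd2 was at −0.70 (−1.17 to −0.25), and 0.33 in TAC TSA over TAC Veh, or 0.16 with loess and −0.06 with receptor-promoter scaling.

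The 7 endothelial markers summed to 3213, 3136, 2784 and 2983 in the same order. In that order the 6 fibroblast markers summed to 1368, 1454, 1669 and 1440 and the 10 cardiomyocyte markers to 3782, 4344, 2601 and 4357. No marker of these lists was at 0. Like the macrophage and leukocyte sum, the fibroblast sum was highest in TAC Veh and higher in Sham TSA than in Sham Veh. It was lowest in Sham Veh, not in TAC TSA. In the difference of TSA ratios 2 of 6 fibroblast markers had an interval below 0, against 9.14% of genes. Their median was −0.38. The part of any of these cell types in the values of Irf9, Irf2, Irf5, Irf8 and Irf4 was not tested.

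**Figure D5:**
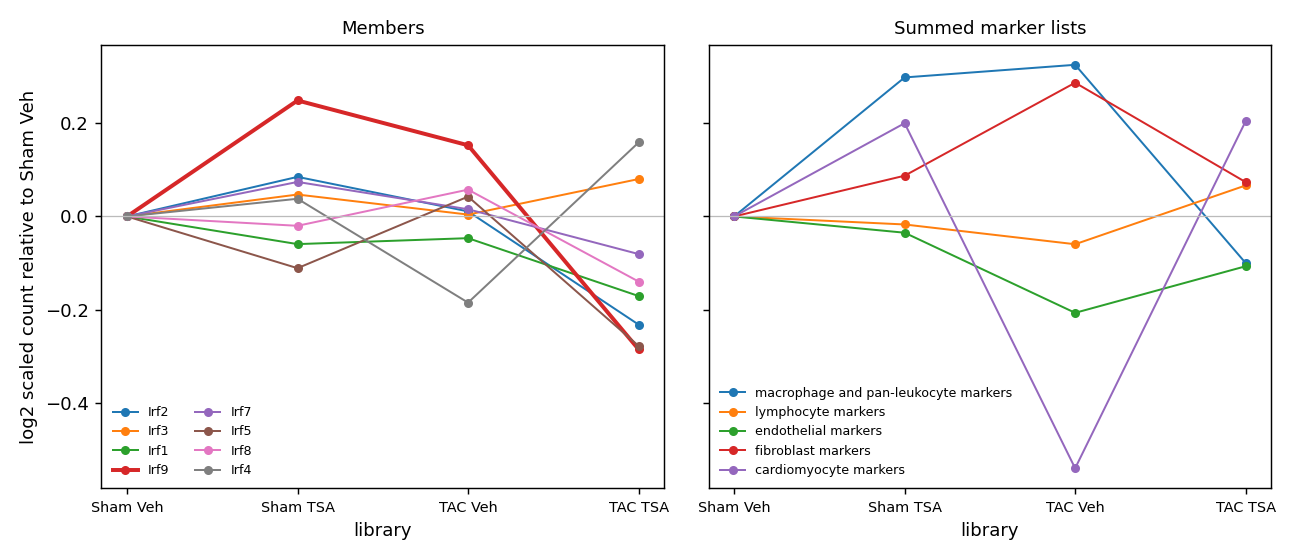
Log2 scaled count relative to Sham Veh (vertical axis) in the 4 libraries for the members (left) and for the summed counts of 5 marker lists (right), with lines that only join the libraries of a gene or list. TAC TSA is the lowest library for Irf1, Irf2, Irf5, Irf7, Irf8 and Irf9 and the highest for Irf3 and Irf4.

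Profiles were compared by the largest difference, in any of the 4 libraries, between log2 scaled counts centred on each gene's mean. Within the family Irf1 and Irf8 were the most alike (0.06) and Irf4 and Irf9 the least (0.47). Irf2 was the member nearest to Irf9 (0.12). Among the 15668 genes whose mean count reached 100, the profiles nearest to Irf9 were those of the demethylase gene Uty (0.022), Ercc6l, a helicase gene (0.025), and Anxa1, an annexin gene (0.040). With only 4 libraries, genes can lie this close to a profile for no shared reason.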

How the data were processed

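Acetylated-H3 ChIP-seq libraries, 1 per group, were analysed from a table of read counts per promoter of each RefSeq ID, which the authors deposited as raw counts without normalisation. MACS 1.4.1, BWA 0.5.9 and the build mm9 are listed in the submitters' processing notes. The sources used here do not give the promoter window, counting tool, duplicate handling or input subtraction. The 6 region lists, on mm9 without gene names, were not used. Of 31594 IDs, 31115 (98.5%) matched a symbol of GRCm38.p6, and the 479 others held 1.11% of counts. A mean count of at least 10 was required.

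Counts were scaled by TMM (edgeR 4.0.16, R 4.3.3). Pairwise log2 ratios carry exact conditional (Clopper-Pearson) 95% intervals, and the difference of TSA ratios a Poisson delta-method interval. The additive fit used edgeR's quasi-likelihood test with Benjamini-Hochberg adjustment at 0.05, and DESeq2 1.42.0 as an alternative. Scripts were tested on simulated data. Python 3.11.15 (scipy 1.17.1, numpy 2.4.6, statsmodels 0.14.6, pandas 2.3.3, matplotlib 3.10.9) served for the rest.

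Members and lists were chosen with earlier results of these data known. List genes named are Stat2, Ifnar1, Ifngr1, Jak1, Tbk1, Spi1, Irf2bp2, Isg15, Ifit1, Cxcl10, Tap1, Psmb8 and Ciita, fixed by name, and genes that were apart. Another gene fixed by name is not reported here. Psmb9 was added after its values were seen. Alternatives were DESeq2 size factors, total counts, receptor-promoter scaling, loess on mean count, summed or lowest-count RefSeq IDs, no filter and a lower fold threshold.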

Additional observations from a re-analysis of the deposited data

Results flagged for a closer look

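Irf9 is listed because its TSA ratio had opposite signs under sham and TAC, each with a counting interval that excluded 0. The log2 ratio was 0.25 (0.08 to 0.42) in Sham TSA over Sham Veh and −0.44 (−0.64 to −0.24) in TAC TSA over TAC Veh, a difference of −0.69. With 1 library per group this difference was not tested. It was −0.63 with the RefSeq ID of the lowest mean count and −0.59 with loess. The difference rests on TAC TSA, the library with the highest share of counts at receptor promoters, and cannot be computed without it. Of the comparisons without that library, Irf9 was at 0.15 (−0.02 to 0.33) in TAC Veh over Sham Veh.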

How the results depend on the processing

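No paired analysis was possible because each group has 1 library, and for the same reason no replicate could be left out. Over 8 members, 4 comparisons and the difference of TSA ratios, 40 log2 values in all, receptor-promoter scaling moved 30 outside their intervals and each of the other 6 settings moved 0. With receptor-promoter scaling 3 members were apart and lower in TAC TSA over TAC Veh (against 0), 6 (against 0) when TAC TSA was set over Sham TSA, and 2 for the difference of TSA ratios (against 1), where 14.4%, 52.6% and 15.7% of all genes were. In TAC TSA over Sham TSA, where it shifts the median of all genes by −0.60, that scaling put 23 of 26 targets, 15 of 17 sensors, 10 of 12 JAK-STAT genes, 8 of 12 partners and 5 of 6 receptors apart and lower. With the fold threshold lowered to 0.32 on the log2 scale, 2 members were apart in TAC TSA over TAC Veh (10.6% of genes). Irf9 was lower there, as 3.7% of genes were, and Irf4 higher, as 6.91% were. When TAC TSA was set over Sham TSA 1 member was apart (13.7% of genes), Irf9, which was lower (3.88%). For the difference 2 members were apart (12.8% of genes), Irf9 and Irf2, both lower (6.35%). The additive fit called no member under its 4 alternatives, and with summed RefSeq IDs 1 member had an unadjusted p under 0.05 for each effect. Over all genes edgeR called 8 for surgery and 49 for drug, and DESeq2 0 and 0, with 47 and 61 at an unadjusted p under 0.05. The depth of TAC TSA, 185 to 660 reads per member, limits how narrow an interval with that library can be.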

Other observations

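The 11 interferon ligand genes had weak promoters. In TAC TSA over Sham TSA 3 were apart and higher, where 7.2% of all genes were. These were Ifna5 at 0.89 (0.25 to 1.55) on 37 (Sham TSA) and 50 (TAC TSA) reads, Ifng at 0.77 (0.12 to 1.42) on 38 and 47, and Ifnl2 at 0.62 (0.09 to 1.16) on 58 and 65. With loess, which removes the trend of the ratio with count, they were at 0.47, 0.33 and 0.30 and none was apart. In Sham TSA over Sham Veh 2 were apart and higher, where 0.582% of genes were. These were Ifne at 0.60 (0.07 to 1.14) on 51 and 79 reads and Ifnz at 0.86 (0.06 to 1.70) on 21 and 39. Ifne was not apart with receptor-promoter scaling (0.57). The 21 reads of Ifnz in Sham Veh were near the median receptor promoter of that library (16). Low counts pass 1.5-fold by counting error more easily, so the shares over all genes are not a like baseline for the ligands. In the difference of TSA ratios Ifnz was apart and lower, at −1.31 (−2.45 to −0.18), where 1.27% of genes were. Its 18 reads in TAC TSA were below the median receptor promoter of that library (20), so this value rests on a count at background level. Ifna5 at 0.97 (0.10 to 1.83) and Ifnl2 at 0.88 (0.17 to 1.59) were apart and higher there, where 4.44% of genes were, and not apart with loess (0.69 and 0.64). Members of the type I ligand family resemble each other in sequence, so reads may be shared between them.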
